A study of Mus musculus with 32 samples.

Results

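Macrophages in which both copies of Trex1 had been deleted by induced Cre activity were compared on day 3 and on day 2 after the end of induction. The comparison takes 4 of the 32 RNA-seq libraries of the series, 2 for each day, picked by the genotype, treatment and day that the sample labels give. The series holds bone marrow-derived macrophages (BMDMs) of Trex1 FL/FL and Trex1 WT/FL mice, with 4-hydroxytamoxifen (4-OHT) or untreated, on days 1, 2, 3 and 4, with 2 libraries in each of the 16 groups.

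All mice carried R26-CreERT2, a Cre recombinase that is expressed from the broadly active Rosa26 locus and enters the nucleus when 4-OHT binds to it. The cells were grown from bone marrow in medium conditioned by L929 cells, a source of the macrophage growth factor M-CSF, and were exposed to 2 µg/ml of 4-OHT for 22 h. In Trex1 FL/FL cells (both alleles flanked by loxP sites), 4-OHT leads to loss of both copies of the gene. In 4-OHT-treated Trex1 WT/FL cells the floxed copy is lost and a wild type copy is kept, and untreated cells of either genotype were not induced. No animal, culture or batch is named in the labels, so p-values measure only the spread between these libraries, which may be technical. Day 3 cells had carried the deletion and been in culture for longer than day 2 cells. By the paper's Western blots, much TREX1 protein was still present on day 2 and nearly all of it was gone on day 3. The comparison therefore also spans the loss of the protein, and these differences cannot be told apart within the arm. The untreated cells and the 4-OHT-treated Trex1 WT/FL cells of the same days were therefore used to show which changes between days were larger or smaller in the Trex1-deleted cells.

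TREX1 is a DNA exonuclease that degrades DNA in the cytosol. When it is missing, DNA can bind the sensor cGAS, whose product activates STING, which in turn leads to production of type I interferon (IFN) and to NF-κB signaling. IFN acts on the cells that make it and on their neighbours through the receptor IFNAR and STAT proteins and raises a large set of antiviral genes. Cultured BMDMs proliferate in the presence of M-CSF, so cell cycle genes, the lipid and amino acid synthesis that growth requires, and antiviral genes can all be read in the same libraries.

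Transcripts of the targeted gene were nearly absent on both days. Trex1 (chr9:108887001-108888802 in GRCm39, minus strand) had 14 and 9 reads in the day 2 libraries and 0 in both day 3 libraries. Against a floor of 3 counts per library, which covers counting error only, the day 3 level was at least 4.52-fold lower. The 4-OHT-treated Trex1 WT/FL libraries held 57.6 and 56.9 CPM (reads scaled to library size by TMM factors) on day 2 and 68.9 and 79.4 CPM on day 3. Untreated Trex1 FL/FL libraries held 120.2 and 102 CPM and 144 and 137 CPM. All 31-base words (stretches of 31 consecutive bases) of Trex1 are found again in Atrip, an overlapping gene on the same strand, so sequence alone could not assign a read to one of them. Shisa5 (chr9:108867633-108887029, plus strand), which meets the end of Trex1 from the opposite strand, was at 27.5 and 25.2 CPM on day 2 and 12.5 and 16.7 CPM on day 3 (log2 fold change -0.84, SE 0.10, adjusted p = 7.93e-08). In 4-OHT-treated Trex1 WT/FL cells it held 227 and 208 CPM on day 2 and 297 and 289.6 CPM on day 3. Whether the deletion itself reaches its transcripts was not tested.

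The 4 libraries held 41677657 and 37495466 counts (day 2) and 37328968 and 63760884 counts (day 3). Libraries of 1 group differed from each other by more than sampling noise in all 16 groups, so none was counted as a duplicate. All 16 macrophage markers were found, with summed levels, as unscaled CPM, of 31269 and 33238 CPM on day 2 and 43982 and 43903 CPM on day 3, and the T and NK cell, mast cell, dendritic cell, erythroid and fibroblast marker sums stayed at or under 2.60 CPM. Granulocyte and progenitor markers summed to 45.2 and 53.2 CPM on day 2 and 175.2 and 183.8 CPM on day 3, most of it Csf3r, while Elane, Ly6g and Retnlg had at most 3 counts. B cell markers went from 151.6 and 151.4 to 76.1 and 70.5 CPM, with Cd79a and Pax5 at or under 3 counts and the sum made up by Ighm, and osteoclast markers went from 222.6 and 173.9 to 87.0 and 81.4 CPM. Endothelial markers summed to 69.2 and 68.1 CPM on day 2 and 40.0 and 37.4 CPM on day 3, almost all from Kdr. In bulk RNA, fewer cells of a type and less RNA per cell cannot be told apart.

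Between day 2 and day 3 far more genes fell strongly than rose strongly. Of 15257 tested genes, 195 (1.28%) were called higher and 578 (3.79%) were called lower on day 3, with a log2 fold change beyond 1.5 in either direction and an adjusted p under 0.01. At an adjusted p below 0.05 with no minimum fold, 3152 genes (20.7%) rose and 3446 (22.6%) fell, around a median log2 fold change of 0 over all genes. The counts that rose and fell in each gene list below use this threshold and stand against these shares. In several lists fewer genes passed when a library was left out. Adjusted p-values come throughout from the quasi-likelihood test of edgeR, adjusted over all tested genes by the Benjamini-Hochberg method. Each gene below that is said to rise in these cells had both day 3 libraries above both day 2 libraries, and each that is said to fall had both below.

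Among called genes with a mean of at least 2 CPM on the higher day and no overlap between days, the 12 largest increases were led by Thbs1 (thrombospondin 1, a secreted matrix protein, chr2:117941974-117957616). It was at 10.9 and 14.2 CPM on day 2 and 237 and 388 CPM on day 3, a 25.0-fold rise (log2 fold change 4.64, SE 0.35, adjusted p = 6.87e-09). Il1b, the inflammatory cytokine interleukin-1β (chr2:129206490-129213059), went from 0.990 and 1.72 CPM to 24.7 and 41.8 CPM (log2 fold change 4.63, SE 0.29, adjusted p = 4.36e-11). In both genes the 2 day 3 libraries differed from each other by more than 1.5-fold and still lay far above both day 2 libraries. The class I heavy chain gene H2-Q7 (chr17:35658131-35662749) rose from 15.5 and 13.1 CPM to 252 and 249 CPM (log2 fold change 4.13, SE 0.16, adjusted p = 8.28e-14). Its neighbour H2-Q6 rose from 8.62 and 9.27 CPM to 137 and 143 CPM, although 52.2% of the 31-base words of H2-Q6 and 41.0% of those of H2-Q7 also occur in other genes, so the split of reads between such copies is uncertain. Adgre4, an adhesion receptor of monocytes and macrophages, went from 4.13 and 3.89 CPM to 49.8 and 68.1 CPM (log2 fold change 3.88, adjusted p = 2.55e-14). Apoe, the lipid-carrying apolipoprotein E, was at 327 and 406 CPM on day 2 and 3359.9 and 3897 CPM on day 3 (log2 fold change 3.31, adjusted p = 2.44e-06), and the neighbouring Apoc2 was at 1.91 and 2.64 CPM and 13.7 and 18.7 CPM (log2 fold change 2.84, adjusted p = 1.49e-06). Cd4, a coreceptor best known from T cells and also made by mouse macrophages, rose from 3.29 and 4.11 CPM to 28.9 and 36.5 CPM, while Cd3d, Cd3e, Cd3g, Cd8a, Klrb1c, Ncr1, Nkg7 and Trbc2 of the T and NK cell markers had at most 3 counts in each of the 4 libraries. Nr4a1, an early response nuclear receptor, rose from 1.16 and 1.11 CPM to 7.19 and 9.27 CPM (log2 fold change 2.86, adjusted p = 1.05e-12). The remaining 3, Gpr171 (3.85), Lrrc14b (3.54) and Gbp11 (3.16, log2 fold changes), stayed under 18 CPM in every library of the comparison, and 95.7% of the words of Lrrc14b and 34.7% of those of Gbp11 are shared with other genes.

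Of the 12 largest decreases by the same rule, 9 are genes of the cell cycle or of DNA metabolism. Pbk, a mitotic kinase, fell from 21.3 and 19.6 CPM to 0.936 and 0.633 CPM (log2 fold change -4.76, SE 0.13, adjusted p = 1.95e-20). Pclaf, a partner of the replication clamp PCNA, fell from 90.8 and 84.6 CPM to 3.74 and 2.89 CPM (log2 fold change -4.76, SE 0.12, adjusted p = 1.16e-19). Cyclin E2 (Ccne2) fell from 22.1 and 21.9 CPM to 1.20 and 0.923 CPM, and the cohesin acetyltransferase Esco2 from 14.2 and 13.3 CPM to 0.789 and 0.616 CPM. Mybl2, a transcription factor of proliferating cells, fell from 19.1 and 15.6 CPM to 1.08 and 0.838 CPM, and E2f7, a repressor of the E2F family that is itself made in S phase, from 8.22 and 8.91 CPM to 0.322 and 0.479 CPM. Ankle1, Rmi2 and Mxd3, which act on DNA structures or in the MAX network, had log2 fold changes of -4.81, -4.42 and -4.72. The other 3 were Nptx1, a secreted pentraxin (from 9.88 and 6.94 CPM to 0.175 and 0.274 CPM), Cd207, the lectin langerin (from 6.09 and 4.52 CPM to 0.234 and 0.205 CPM), and Cyp2s1, a cytochrome P450 (from 5.94 and 5.13 CPM to 0.585 and 0.0855 CPM). For all 24 genes both day 3 libraries lay on the same side of both day 2 libraries, which the choice of genes required.

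**Figure D1:**
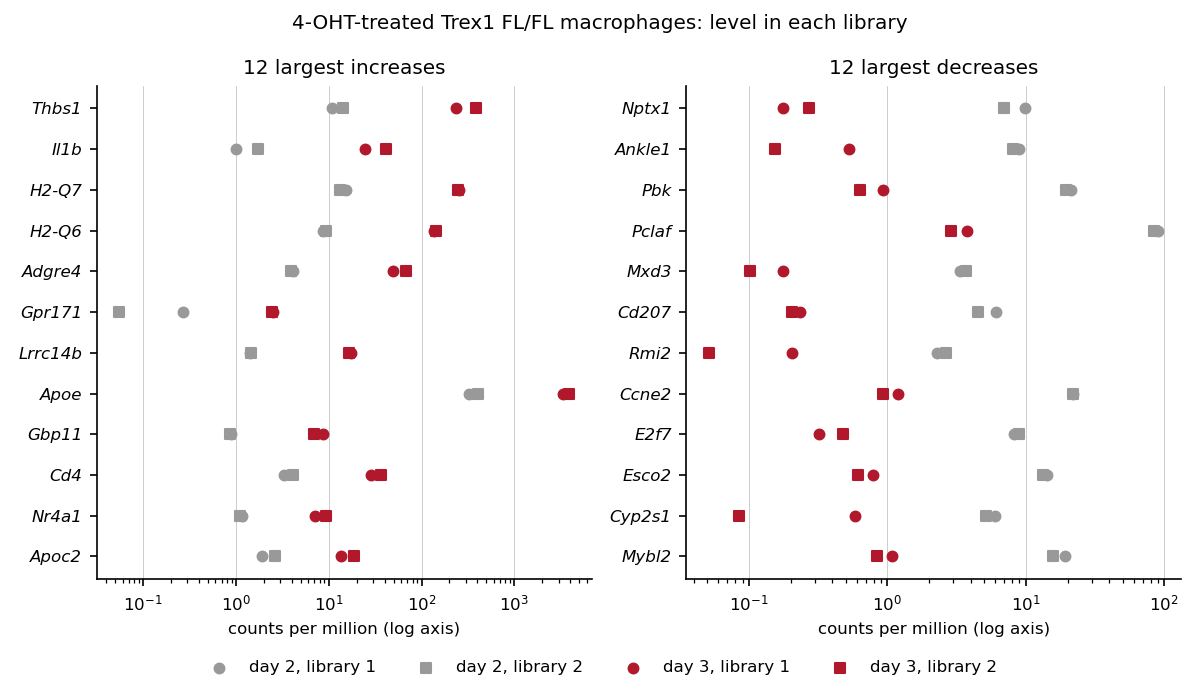
Level in CPM (log axis) of the 12 genes with the largest increases (left) and the 12 with the largest decreases (right) in each library of 4-OHT-treated Trex1 FL/FL cells, with day 2 in grey and day 3 in red and a point for each of the 2 libraries of a day. Day 2 and day 3 points do not overlap for any gene, with Thbs1 between 10.9 and 14.2 CPM on day 2 and between 237 and 388 CPM on day 3.

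Genes of DNA replication and mitosis fell together. Of 60 tested genes of DNA replication and S phase, 58 fell and 0 rose, with a median log2 fold change of -2.02 against 0 for all tested genes, of which 20.7% rose and 22.6% fell. Of 52 tested genes of the G2 and M phases, 51 fell and 0 rose, with a median of -3.30. In each of the roles within these lists all members fell except in the polymerase and clamp group (14 of 16) and the mitotic checkpoint group (7 of 8).

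The origin and helicase group, which licenses and unwinds DNA for copying, fell in 17 of 17 genes with a median log2 fold change of -2.28. Its member Mcm7, a subunit of the replicative helicase, fell from 68.0 and 64.2 CPM to 9.94 and 10.1 CPM (log2 fold change -2.72, SE 0.08, adjusted p = 3.2e-20), and 28.2% of its words are shared with another gene. Cdc6, which loads that helicase, fell from 16.0 and 13.0 CPM to 2.63 and 2.14 CPM (log2 fold change -2.62, SE 0.15, adjusted p = 7.52e-14). All 7 nucleotide synthesis genes fell, among them thymidine kinase Tk1 with 49.3 and 42.2 CPM on day 2 and 3.48 and 1.97 CPM on day 3. The clamp gene Pcna fell from 363 and 354 CPM to 129 and 121 CPM (log2 fold change -1.52, SE 0.07, adjusted p = 3.82e-16). Uhrf1, which helps to copy DNA methylation to the new strand, fell from 86.1 and 76.9 CPM to 5.93 and 3.81 CPM.

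The enzymes that trim and seal Okazaki fragments, the short pieces of the lagging strand, all fell. Lig1, the ligase, went from 72.5 and 72.9 CPM to 11.8 and 12.1 CPM (log2 fold change -2.60, SE 0.07, adjusted p = 1.65e-20). Exo1, a flap nuclease and exonuclease, went from 6.96 and 7.13 CPM to 1.14 and 0.633 CPM (log2 fold change -3.06, SE 0.27, adjusted p = 1.72e-09). Fen1, the main flap endonuclease, went from 64.4 and 54.1 CPM to 25.8 and 21.9 CPM (log2 fold change -1.32, SE 0.10, adjusted p = 1.09e-11). The helicase and nuclease Dna2 was at 15.1 and 16.3 CPM on day 2 and 9.53 and 5.97 CPM on day 3 (log2 fold change -1.04, adjusted p = 3.25e-06). None of these 4 changes differed from that in 4-OHT-treated Trex1 WT/FL cells at an adjusted p below 0.05, with differences between -0.10 (Lig1) and 0.23 (Fen1) on the log2 scale.

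Among mitotic genes, Ccna2 (cyclin A2) fell from 101 and 99.3 CPM to 6.61 and 5.44 CPM (log2 fold change -4.08, SE 0.09, adjusted p = 5.22e-22) and Ccnb2 (cyclin B2) from 65.6 and 63.2 CPM to 5.61 and 4.98 CPM (log2 fold change -3.62, SE 0.11, adjusted p = 5.25e-19). The proliferation marker Mki67 went from 273 and 245 CPM to 29.6 and 28.5 CPM (log2 fold change -3.16, SE 0.10, adjusted p = 1.61e-18). Spc24, part of the kinetochore that links chromosomes to the spindle, fell from 11.7 and 12.0 CPM to 0.731 and 0.701 CPM. Top2a, which untangles chromosomes, fell from 282 and 265 CPM to 24.7 and 21.5 CPM (log2 fold change -3.57, SE 0.10, adjusted p = 5.05e-20), and Kif2c, a spindle motor, from 33.7 and 30.3 CPM to 3.07 and 2.72 CPM (log2 fold change -3.48, SE 0.15, adjusted p = 1.49e-15).

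Some mitotic genes fell less here than in 4-OHT-treated Trex1 WT/FL cells. Tpx2, a spindle assembly factor, fell from 94.6 and 83.4 CPM to 20.6 and 17.8 CPM (-2.22 on the log2 scale), whereas it went from 99.8 and 101 CPM to 9.31 and 10.6 CPM in 4-OHT-treated Trex1 WT/FL cells, a difference between the 2 changes of 1.12 (SE 0.13, adjusted p = 1.68e-05). The kinase Nek2, which is outside the G2 and M list, had a log2 fold change of -3.03 here and -4.01 there, with a difference of 0.98 (SE 0.19, adjusted p = 0.00459). Against 4-OHT-treated Trex1 WT/FL cells the change was higher at an adjusted p below 0.05 in 8 of 52 G2 and M genes and lower in 1, where 1.09% of all tested genes were higher and 1.63% lower. With untreated Trex1 FL/FL cells as the reference the counts were 4 and 2, where 1.29% and 2.8% of all genes passed in those directions. In the S phase list the only such gene in either comparison was Pcna, with a difference of -0.44 (SE 0.10, adjusted p = 0.011, and 0.0714 without day 3 replicate 2) from 4-OHT-treated Trex1 WT/FL cells.

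In the control of G1, 3 of 17 tested genes rose and 10 fell (median -0.57). Cyclin D1 (Ccnd1), which couples growth factor signals to the cell cycle, fell from 445 and 410.1 CPM to 70.5 and 64.4 CPM (log2 fold change -2.67, SE 0.09, adjusted p = 5.25e-19), with 47.5% of its words shared with Lto1. Ccnd2 fell from 42.8 and 46.7 CPM to 10.8 and 12.7 CPM, and the inhibitor Cdkn1b (p27) rose from 53.8 and 52.6 CPM to 86.2 and 88.6 CPM (log2 fold change 0.72, SE 0.07, adjusted p = 9.86e-10). Of 25 tested p53 target genes 9 rose and 3 fell, with a median of 0.11. Xpc, a damage sensor of excision repair, rose from 16.8 and 16.7 CPM to 29.8 and 29.1 CPM (log2 fold change 0.81, adjusted p = 2.67e-07), and Trp53inp1 rose from 52.0 and 58.5 CPM to 91.6 and 101 CPM, while the death receptor Tnfrsf10b fell from 5.55 and 3.77 CPM to 2.98 and 3.08 CPM (log2 fold change -0.62, adjusted p = 0.0126). Ccng1 (cyclin G1) rose from 197 and 207 CPM to 239 and 256 CPM (log2 fold change 0.29, adjusted p = 0.00113), whereas it fell in 4-OHT-treated Trex1 WT/FL cells from 225 and 243 CPM to 187 and 195 CPM, a difference of 0.59 (SE 0.10, adjusted p = 0.00114). When a library was left out, the p53 median lay between 0.01 and 0.22 and 0 to 3 p53 target genes fell, with 0 without day 3 replicate 2, and the adjusted p of Tnfrsf10b was 0.330 without day 2 replicate 1, 0.0623 without day 3 replicate 1 and 0.0557 without day 3 replicate 2.

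The promoters of the genes that fell were searched for letters bound by cell cycle regulators. Mitotic genes often carry a cell cycle homology region (CHR), read here as TTTGAA, which the DREAM and MuvB complexes bind, and S phase genes carry E2F sites, read here as TTTCCCGC. In the RefSeq promoter windows (from 250 bases before to 50 bases after the annotated start, both strands, GRCm38.p6), TTTGAA stood in 29 of 41 windows of the G2 and M list (70.7%), in 24.9% of the windows of genes called lower, in 13.2% of those called higher and in 12.5% of 10600 windows of tested genes. TTTCCCGC stood in 9 of 48 windows of the S phase list (18.8%), in 4.47% of those of genes called lower, in 0 of 129 of those called higher and in 2.09% of all tested. The windows cover 69.5% of the tested genes, and a match is a description of the letters, not a bound site. The following stretches belong to 3 genes with the CHR letters and 3 with the E2F letters whose levels are given above. Capitals mark the match or its complement, and each is read 5′ to 3′ along the strand of the gene.
Ccnb2, chr9:70421671-70421766, minus strand: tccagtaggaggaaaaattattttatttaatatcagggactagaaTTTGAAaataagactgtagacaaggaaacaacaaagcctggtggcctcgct
Top2a, chr11:99024190-99024257, minus strand: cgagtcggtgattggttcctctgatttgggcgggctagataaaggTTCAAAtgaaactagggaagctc
Kif2c, chr4:117178825-117178920, minus strand: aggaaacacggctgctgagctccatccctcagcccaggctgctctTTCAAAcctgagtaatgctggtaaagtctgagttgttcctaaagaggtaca
E2f7, chr10:110745196-110745293, plus strand: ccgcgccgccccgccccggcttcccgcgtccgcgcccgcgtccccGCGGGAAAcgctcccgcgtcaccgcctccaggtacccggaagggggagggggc
Mcm7, chr5:138171996-138172093, minus strand: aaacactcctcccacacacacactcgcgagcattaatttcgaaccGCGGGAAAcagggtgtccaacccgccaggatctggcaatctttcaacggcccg
Cdc6, chr11:98907968-98908065, plus strand: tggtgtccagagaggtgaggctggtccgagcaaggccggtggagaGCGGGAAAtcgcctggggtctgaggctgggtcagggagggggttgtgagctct

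Sterol and fatty acid synthesis genes fell together. All 34 tested genes fell (median -2.05), including 19 of 19 enzymes of the cholesterol pathway. Idi1, an isomerase of that pathway, fell from 184 and 189 CPM to 19.2 and 15.4 CPM (log2 fold change -3.44, SE 0.13, adjusted p = 1.16e-14). Sqle, which oxidises squalene, fell from 170.0 and 160.5 CPM to 18.2 and 14.7 CPM (log2 fold change -3.34, SE 0.15, adjusted p = 5.37e-13), and Fdps, which makes farnesyl diphosphate, from 274 and 269.6 CPM to 31.2 and 26.8 CPM. The fatty acid desaturase Fads2 fell from 181 and 176 CPM to 20.4 and 19.8 CPM. Scd2, another desaturase, fell from 859.9 and 874 CPM to 157 and 198 CPM, by less than in 4-OHT-treated Trex1 WT/FL cells (-3.31 there, difference 1.02, SE 0.18, adjusted p = 0.00397).

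Genes of lipid export mostly rose. Of 14 tested genes of lipid efflux and of the liver X receptors (LXR), which sense oxysterols, 10 rose and 4 fell (median 0.96). Besides Apoe and Apoc2, the phospholipid transfer protein gene Pltp rose from 407 and 427 CPM to 1547 and 1512 CPM (log2 fold change 1.87, SE 0.13, adjusted p = 6.2e-10), and the exporter Abca1 from 465 and 451 CPM to 777 and 939 CPM (log2 fold change 0.91, SE 0.08, adjusted p = 7.88e-10). The fatty acid importer Cd36 fell from 478 and 406 CPM to 139.5 and 135 CPM (log2 fold change -1.69, SE 0.09, adjusted p = 3.8e-13). The lipase Lpl fell from 3999 and 3476 CPM to 1842 and 1727 CPM (log2 fold change -1.07, SE 0.10, adjusted p = 9.92e-09), by more than in 4-OHT-treated Trex1 WT/FL cells (difference -0.52, SE 0.14, adjusted p = 0.0467, and 0.201 without day 2 replicate 1). Smpdl3a, a phosphodiesterase raised by LXR, rose from 124 and 141 CPM to 284 and 284 CPM, by more than in those cells (difference 0.46, SE 0.12, adjusted p = 0.0421, and 0.208 without day 2 replicate 1).

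**Figure D2:**
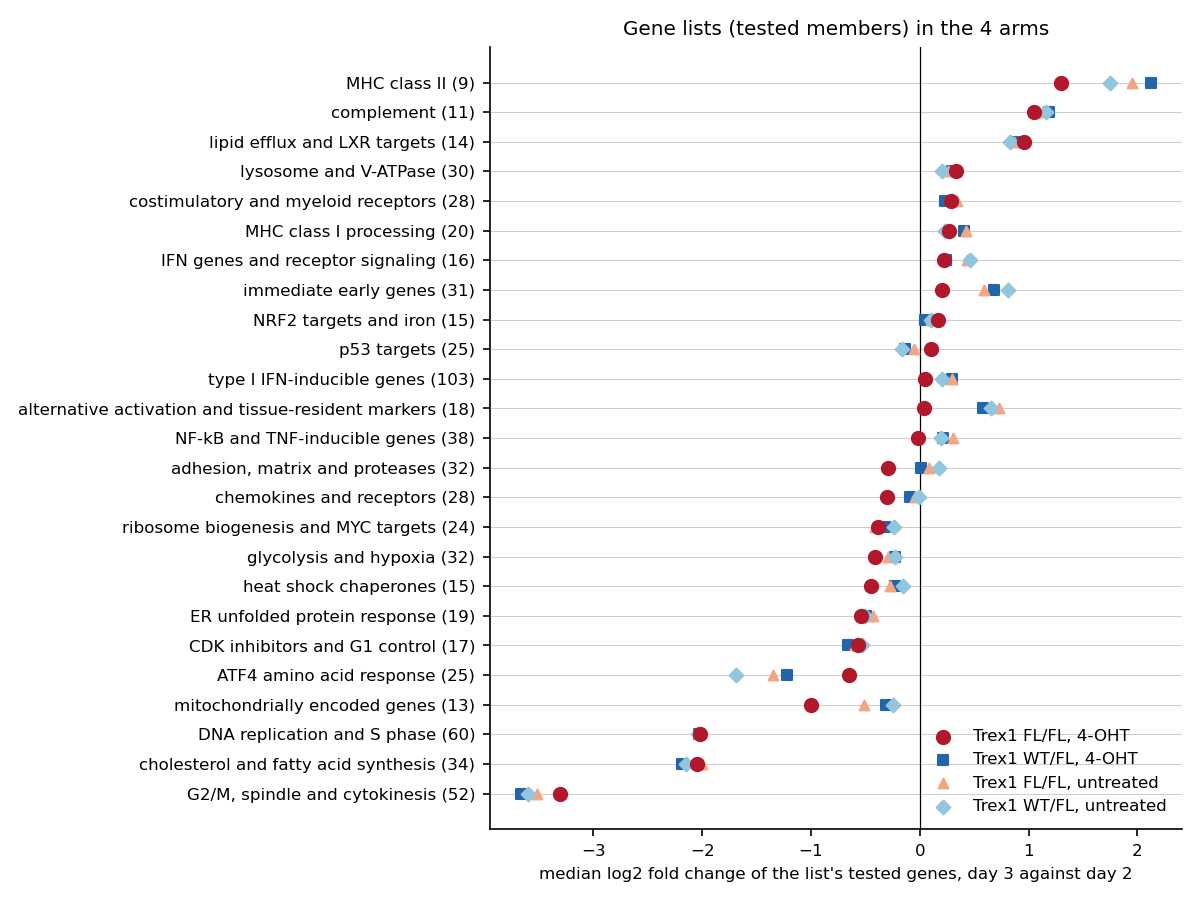
Median log2 fold change from day 2 to day 3 for each of the 25 gene lists in the 4 arms (horizontal axis), with the 4-OHT-treated Trex1 FL/FL cells in red. The S phase, G2 and M and cholesterol lists lie at -2.02, -3.30 and -2.05 in the Trex1-deleted cells and close to the other arms, while the ATF4 list lies at -0.65 against -1.22, -1.35 and -1.69.

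Type I IFN-inducible genes, which already lay above the other arms on day 2, went in both directions from day 2 to day 3. Of 103 tested genes 30 rose, 25 fell and 48 did not pass, with a median log2 fold change of 0.05, where 20.7% of all tested genes rose and 22.6% fell. The median was between 0.02 and 0.09 when a library was left out. The mean log2 CPM of the list (prior count 2) was 7.83 and 7.83 in the day 2 libraries and 7.87 and 7.79 in the day 3 libraries, after 4.21 and 4.01 on day 1. The other arms lay between 3.84 and 4.15 on day 1, so the list rose from day 1 to day 2 in every arm. They lay between 6.30 and 6.74 on day 2 and between 6.53 and 7.05 on day 3. These counts dropped when a library was left out, to 13 and 20 that rose and 18 and 16 that fell without day 2 replicate 1 or 2, and to 16 and 20 that rose and 21 and 15 that fell without day 3 replicate 1 or 2. Ifnb1, the gene of IFN-β itself, had 18 and 12 reads on day 2 and 15 and 20 reads on day 3 (log2 fold change -0.01, SE 1.04, adjusted p = 1).

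The chemokines of the list had the lowest median of its 11 roles, -1.71, with 5 of 7 genes lower. Ccl2, which draws monocytes, fell from 176 and 193 CPM to 27.9 and 27.6 CPM (log2 fold change -2.74, SE 0.19, adjusted p = 1.77e-09), and Ccl7 from 135 and 152 CPM to 19.6 and 26.5 CPM (log2 fold change -2.63, SE 0.27, adjusted p = 3.19e-07). Ccl12 fell from 60.5 and 63.4 CPM to 16.7 and 19.0 CPM. Cxcl10, which attracts T cells, fell from 777 and 835 CPM to 269 and 225 CPM (log2 fold change -1.71, SE 0.25, adjusted p = 2.47e-05), next to -0.53 in 4-OHT-treated Trex1 WT/FL cells (difference -1.17, SE 0.35, adjusted p = 0.0878, which did not pass). Ccl5 was the only chemokine of the list that rose, from 19.1 and 19.3 CPM to 82.7 and 88.4 CPM (log2 fold change 2.16, SE 0.27, adjusted p = 3.59e-06).

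Antiviral effectors were mixed. In the IFIT family, which binds viral RNA, 0 of 5 genes passed in either direction, with Ifit1 at 706 and 755 CPM and 689 and 617 CPM. Of 8 OAS family genes, which activate RNase L, 4 rose and 0 fell, among them Oas3 from 861 and 797 CPM to 1191 and 1117 CPM (log2 fold change 0.48, adjusted p = 0.018). Of the MX genes 0 of 2 rose and 1 fell, namely Mx2, a dynamin-like GTPase, from 58.4 and 55.8 CPM to 41.3 and 41.4 CPM (log2 fold change -0.47, adjusted p = 0.0167). Of 5 genes of ISG15 conjugation, a ubiquitin-like tagging system, 3 fell, and the modifier Isg15 went from 518 and 507 CPM to 382 and 317 CPM (log2 fold change -0.55, adjusted p = 0.0262), with 33.4% of its words shared. Of 8 transcription factor genes of the list 4 rose and 0 fell, among them Irf7, the IFN-induced amplifier of IFN genes, with 1246 and 1127 CPM on day 2 and 2519 and 2260.3 CPM on day 3 (log2 fold change 1.01, SE 0.20, adjusted p = 0.000566). The surface proteins Ly6a (488 and 417 CPM and 1377 and 1249.5 CPM, log2 fold change 1.54, adjusted p = 0.00685) and Ms4a4c (284 and 259.8 CPM and 711 and 657 CPM, log2 fold change 1.33, adjusted p = 5.88e-05) rose as well. Of 12 sensor genes 1 rose and 2 fell: the DNA sensor Cgas fell from 36.8 and 33.0 CPM to 17.8 and 16.6 CPM (log2 fold change -1.02, SE 0.10, adjusted p = 5.69e-09), while its adaptor Sting1 rose from 51.6 and 57.1 CPM to 62.5 and 67.4 CPM (log2 fold change 0.26, SE 0.09, adjusted p = 0.0236). Of 19 restriction factor genes 6 rose and 3 fell, of 5 immunity-related GTPase genes 0 rose and 1 fell, and of 24 genes with other roles 12 rose and 6 fell. Several of these calls were lost when 1 library was left out. Without day 2 replicate 1 the adjusted p was 0.0892 for Mx2, 0.0983 for Isg15, 0.226 for Sting1 and 0.0503 for Oas3. Without day 2 replicate 2 it was 0.0782 for Isg15, 0.115 for Oas3 and 0.0596 for Ly6a. Without day 3 replicate 1 it was 0.0747 for Mx2 and 0.0968 for Oas3, and without day 3 replicate 2 it was 0.0792 for Mx2, 0.197 for Isg15 and 0.184 for Sting1.

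Part of the guanylate-binding protein (GBP) genes, which encode GTPases that attack pathogen vacuoles, fell here, while most rose in the other arms. Of the 8 tested GBP genes of the list 2 rose and 4 fell, where the median was -0.25 here and 0.61 in 4-OHT-treated Trex1 WT/FL cells. Gbp11, which is outside the list, was among the largest increases given above. Gbp2 fell from 378 and 384 CPM to 269 and 241 CPM (log2 fold change -0.58, SE 0.17, adjusted p = 0.00952), while it went from 118 and 105 CPM to 150.0 and 187 CPM in 4-OHT-treated Trex1 WT/FL cells. Gbp5 fell from 122 and 132 CPM to 79.7 and 78.1 CPM (log2 fold change -0.68, SE 0.18, adjusted p = 0.00459) and went from 34.8 and 34.0 CPM to 49.9 and 56.5 CPM there. Gbp7 fell from 275 and 287 CPM to 203 and 199 CPM (log2 fold change -0.48, SE 0.12, adjusted p = 0.00256) and Gbp3 from 236 and 236 CPM to 165 and 143 CPM (log2 fold change -0.61, SE 0.15, adjusted p = 0.00298). On both days the Trex1-deleted libraries held more of Gbp2 and of Gbp5 than the treated Trex1 WT/FL libraries, and the gap narrowed. The differences between the 2 changes were -1.31 (SE 0.26, adjusted p = 0.00935) for Gbp5 and -1.18 (SE 0.24, adjusted p = 0.013, and 0.0693 without day 3 replicate 2) for Gbp2. They were -0.88 (SE 0.17, adjusted p = 0.00685) for Gbp7 and -0.88 (SE 0.22, adjusted p = 0.0349, and 0.144 without day 3 replicate 2) for Gbp3. Against untreated Trex1 FL/FL cells they were -1.46 (SE 0.26, adjusted p = 0.00347) for Gbp5 and -1.23 (SE 0.24, adjusted p = 0.00772) for Gbp2. For Gbp7 and Gbp3 they were -1.04 (SE 0.17, adjusted p = 0.00141) and -1.05 (SE 0.22, adjusted p = 0.0108, and 0.0604 without day 3 replicate 2). Gbp8 instead rose from 8.12 and 9.63 CPM to 32.4 and 31.9 CPM (log2 fold change 1.86, adjusted p = 2.08e-05), with 24.9% of its words shared. Without day 3 replicate 2 the fall of Gbp2 had an adjusted p of 0.0852.

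In all, 10 of 103 IFN-inducible genes had a lower change than in 4-OHT-treated Trex1 WT/FL cells (1.63% of all tested genes) and 0 had a higher one. Against untreated Trex1 FL/FL cells, 10 had a lower change (2.8% of all tested genes) and 0 a higher one, and this set holds a chemokine in place of Cd274. Both differences use the same 4 Trex1-deleted libraries. Of the 10 differences from treated Trex1 WT/FL cells, those of Gbp5, Gbp7, Samhd1 and Cd274 passed without each of these 4 libraries in turn. Those of Gbp2, Gbp3, Apobec3, Uba7, Irf1 and Irf8 were lost without at least 1 of them, with the highest adjusted p given beside each. Samhd1, a restriction factor that degrades nucleotides, was at 1307 and 1337 CPM on day 2 and 1408 and 1420.2 CPM on day 3 (log2 fold change 0.10, adjusted p = 0.229) against 793 and 718 CPM and 1094 and 1174 CPM, a difference of -0.49 (SE 0.09, adjusted p = 0.00266). The cytidine deaminase gene Apobec3 differed by -0.39 (SE 0.10, adjusted p = 0.031, and 0.143 without day 2 replicate 2). The ISG15-activating enzyme Uba7 differed by -0.51 (SE 0.12, adjusted p = 0.0144, and 0.0965 without day 3 replicate 2). The transcription factors Irf1 and Irf8 differed by -0.37 (SE 0.08, adjusted p = 0.0115, and 0.0835 without day 2 replicate 2) and -0.38 (SE 0.09, adjusted p = 0.0205, and 0.0904 without day 3 replicate 1). Irf8 rose here, from 138 and 134 CPM to 219 and 223 CPM, and so did Irf1, from 158 and 171 CPM to 184 and 184 CPM. The checkpoint ligand Cd274 (PD-L1), also a member of the costimulatory list, went from 116 and 119 CPM to 147 and 136 CPM, with a difference of -0.57 (SE 0.12, adjusted p = 0.00624). Over the list, the change was nominally lower than in treated Trex1 WT/FL cells in 95 of 103 genes, where 7830 of 15257 tested genes had that sign. The rise of Irf1 had an adjusted p of 0.293 without day 2 replicate 1, 0.0871 without day 3 replicate 1 and 0.0988 without day 3 replicate 2.

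**Figure D3:**
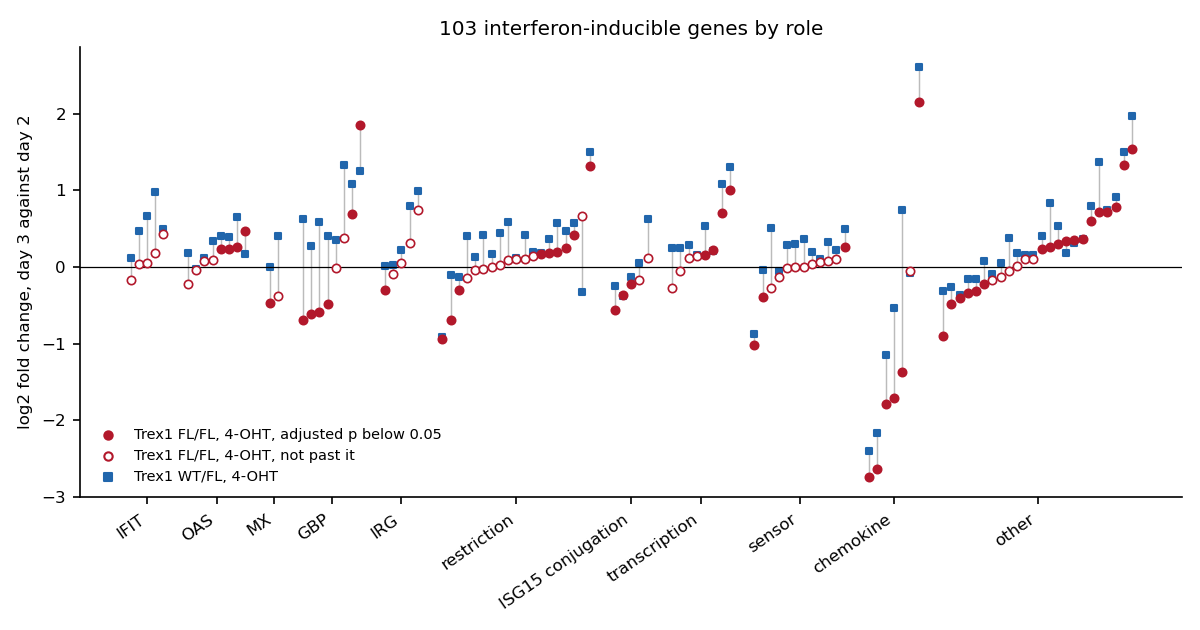
Log2 fold change from day 2 to day 3 of the 103 tested IFN-inducible genes grouped by role, with red circles for 4-OHT-treated Trex1 FL/FL cells (filled where the adjusted p was below 0.05) and blue squares for the same gene in 4-OHT-treated Trex1 WT/FL cells. The median of the GBP genes is -0.25 for the circles and 0.61 for the squares, and that of the chemokines -1.71 and -0.53.

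IFN acts on promoters with an IFN-stimulated response element (ISRE), read here by its core TTCNNTTTC on both strands. These letters stood in 37 of 74 promoter windows of the IFN-inducible list, in 12.4% of those of genes called higher, in 7.29% of those called lower and in 7.46% of all tested. The windows of Gbp2, Gbp3 and Gbp5, whose changes differed from the other arms, held the core as capitals show (RefSeq, GRCm38.p6). The Gbp3 stretch holds 2 overlapping matches, and capitals mark the one nearer the start.
Gbp2, chr3:142620560-142620658, plus strand: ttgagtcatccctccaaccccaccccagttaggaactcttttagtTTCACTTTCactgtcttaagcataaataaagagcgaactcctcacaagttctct
Gbp3, chr3:142559961-142560043, plus strand: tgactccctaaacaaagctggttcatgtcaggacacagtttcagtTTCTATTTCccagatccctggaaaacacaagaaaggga
Gbp5, chr3:142496725-142496823, plus strand: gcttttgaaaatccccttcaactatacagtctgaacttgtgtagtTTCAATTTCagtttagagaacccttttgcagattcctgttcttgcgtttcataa

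In IFN signaling, 7 of 16 tested genes rose and 2 fell (median 0.22). Ifnar2, a chain of the receptor, rose from 114 and 117 CPM to 159.8 and 158 CPM (log2 fold change 0.46, SE 0.05, adjusted p = 1.35e-08), and the other chain, Ifnar1, fell from 245 and 252 CPM to 195 and 202 CPM (log2 fold change -0.32, SE 0.06, adjusted p = 9.92e-05). The feedback inhibitor Socs1 fell from 13.4 and 12.5 CPM to 6.67 and 5.56 CPM (log2 fold change -1.09, adjusted p = 0.00616), while Cish of the same family rose from 1.88 and 2.53 CPM to 3.89 and 3.66 CPM (log2 fold change 0.78, adjusted p = 0.00487). The adjusted p of Socs1 was 0.0722 without day 3 replicate 2 and that of Cish 0.106 without day 2 replicate 1.

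Genes of antigen presentation rose where they encode the presenting chains. In the class I list 10 of 20 genes rose and 1 fell (median 0.27), and those that rose were 9 of 9 heavy chains (median 1.29) and the light chain. B2m, the light chain, rose from 2485 and 2637 CPM to 5336 and 5352 CPM (log2 fold change 1.06, SE 0.05, adjusted p = 5.32e-15). H2-D1, a classical heavy chain, rose from 3513 and 3558 CPM to 10012 and 9859 CPM (log2 fold change 1.49, SE 0.10, adjusted p = 1.37e-10), with 44.7% of its words shared, and H2-Q4 rose from 212 and 210.5 CPM to 536 and 504 CPM (log2 fold change 1.30, SE 0.10, adjusted p = 1.82e-10), with 56.4% shared. Of the peptide supply genes, 0 of 3 transport genes passed and 0 of 5 immunoproteasome genes rose, with the proteasome activator Psme2 lower, at 275 and 280.0 CPM and 228 and 211 CPM (log2 fold change -0.34, adjusted p = 1.83e-05).

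In the class II list 8 of 9 genes rose and 0 fell (median 1.30, against 2.12 in 4-OHT-treated Trex1 WT/FL, 1.95 in untreated Trex1 FL/FL and 1.75 in untreated Trex1 WT/FL cells). H2-Aa, a chain of the peptide receptor, rose from 7.63 and 6.66 CPM to 35.3 and 24.5 CPM (log2 fold change 2.05, SE 0.26, adjusted p = 3.26e-06), and H2-Ab1 from 9.58 and 9.38 CPM to 38.8 and 30.1 CPM (log2 fold change 1.86, SE 0.28, adjusted p = 3.69e-05). H2-Eb1 rose from 6.12 and 4.55 CPM to 20.3 and 16.9 CPM, by less than in treated Trex1 WT/FL cells, which went from 5.64 and 6.20 CPM to 49.2 and 51.8 CPM (difference -1.30, SE 0.25, adjusted p = 0.00546, and 0.0643 without day 2 replicate 1). Cd74, the invariant chain, rose from 66.2 and 57.4 CPM to 196 and 174 CPM, with a difference of -0.87 (SE 0.22, adjusted p = 0.0468, and 0.186 without day 2 replicate 1). Ciita, which switches class II genes on, rose from 2.10 and 1.69 CPM to 5.20 and 4.21 CPM (log2 fold change 1.30, adjusted p = 6.22e-06), and its difference of -0.82 (SE 0.28, adjusted p = 0.119) did not pass.

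Several genes of the amino acid response, which the transcription factor ATF4 raises when amino acids are short or translation is impaired, fell less in the Trex1-deleted cells than in both control arms tested. Of 25 tested genes 6 rose (24%) and 13 fell (52%), where 20.7% of all tested genes rose and 22.6% fell. Fewer genes of the list rose when any 1 of the 4 Trex1-deleted libraries was left out. The median was -0.65 against -1.22 in 4-OHT-treated Trex1 WT/FL, -1.35 in untreated Trex1 FL/FL and -1.69 in untreated Trex1 WT/FL cells. The change was higher than in 4-OHT-treated Trex1 WT/FL cells in 9 genes (1.09% of all tested) and lower in 0, and higher than in untreated Trex1 FL/FL cells in 10 (1.29% of all tested) and lower in 0.

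Among the enzymes, 9 of 10 amino acid synthesis genes fell. Asns, which makes asparagine, fell from 143 and 157 CPM to 49.1 and 46.0 CPM (log2 fold change -1.66, SE 0.09, adjusted p = 1.3e-13), while it went from 101 and 109 CPM to 12.4 and 12.9 CPM in treated Trex1 WT/FL cells (difference 1.40, SE 0.14, adjusted p = 1.04e-06). Phgdh, the first enzyme of serine synthesis, fell from 82.5 and 98.4 CPM to 26.6 and 22.3 CPM, against 77.1 and 75.5 CPM and 5.33 and 6.95 CPM there (difference 1.75, SE 0.21, adjusted p = 5.34e-05), with 40.3% of its words shared. Psat1, the next enzyme of that path, fell from 81.5 and 79.8 CPM to 5.82 and 4.38 CPM (log2 fold change -4.01, SE 0.15, adjusted p = 4.17e-15), with a difference of 0.09 (SE 0.22, adjusted p = 0.912) from treated Trex1 WT/FL cells. Mthfd2, of mitochondrial folate metabolism, fell from 159 and 166 CPM to 71.6 and 79.3 CPM (difference 0.86, SE 0.13, adjusted p = 0.000308), and Aldh18a1, of proline synthesis, from 66.3 and 66.5 CPM to 18.2 and 16.6 CPM (difference 0.73, SE 0.11, adjusted p = 0.000423). The amino acid transporter Slc7a5 fell from 85.0 and 82.4 CPM to 16.8 and 14.9 CPM, with 60.8 and 61.9 CPM and 3.01 and 4.58 CPM in treated Trex1 WT/FL cells (difference 1.62, SE 0.21, adjusted p = 0.000113).

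Of 6 tested regulators of the response 4 rose and 1 fell. Trib3, a pseudokinase that restrains the response, was at 32.2 and 34.4 CPM on day 2 and 30.1 and 27.9 CPM on day 3 (log2 fold change -0.20, SE 0.19, adjusted p = 0.442), whereas it went from 13.2 and 19.1 CPM to 3.35 and 3.19 CPM in treated Trex1 WT/FL cells (difference 2.11, SE 0.29, adjusted p = 0.000258). Atf5 rose from 64.4 and 78.6 CPM to 130.4 and 125 CPM (log2 fold change 0.84, SE 0.15, adjusted p = 0.000113), with a difference of 0.97 (SE 0.21, adjusted p = 0.0167, and 0.0956 without day 2 replicate 1). Atf4 itself fell from 259 and 277 CPM to 174 and 166 CPM (log2 fold change -0.65, SE 0.07, adjusted p = 5.86e-09), with a difference of 0.57 (SE 0.09, adjusted p = 0.000996). Nupr1 rose from 41.7 and 49.2 CPM to 80.8 and 86.3 CPM, the cystine importer Slc7a11 from 4.75 and 5.58 CPM to 16.2 and 23.7 CPM (log2 fold change 1.96, adjusted p = 2.34e-07), and Ddit3 (CHOP) from 44.5 and 48.1 CPM to 79.9 and 79.1 CPM (log2 fold change 0.78, adjusted p = 2.98e-06), although 75.3% of the words of Ddit3 lie in transcripts of Mars1. Chac1, which degrades glutathione, fell from 11.7 and 12.3 CPM to 2.51 and 2.19 CPM (log2 fold change -2.36, adjusted p = 2e-07, difference 1.61, SE 0.45, adjusted p = 0.0511).

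A C/EBP-ATF response element (CARE), read as TGATGCAA on both strands, stood in 4 of 22 promoter windows of this list (18.2%) and in 0.585% of all tested. Of the genes with a match, 1 that rose (Slc7a11) and 2 that fell (Chac1 and Pycr1, the latter with 1.96 and 1.17 CPM on day 2 and 0.409 and 0.427 CPM on day 3, and an adjusted p of 0.0651 without day 2 replicate 1) are shown with the letters or their complement in capitals (RefSeq, GRCm38.p6). The Slc7a11 stretch holds 2 matches, and capitals mark the one nearer the start.
Slc7a11, chr3:50443614-50443705, minus strand: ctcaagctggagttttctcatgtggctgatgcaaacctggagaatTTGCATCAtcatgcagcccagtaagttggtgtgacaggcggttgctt
Chac1, chr2:119351004-119351101, plus strand: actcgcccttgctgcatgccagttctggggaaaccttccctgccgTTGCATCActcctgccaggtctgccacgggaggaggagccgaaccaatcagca
Pycr1, chr11:120643799-120643896, minus strand: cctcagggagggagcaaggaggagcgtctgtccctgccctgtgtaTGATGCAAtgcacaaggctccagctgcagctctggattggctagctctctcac

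Protein folding genes fell. In the unfolded protein response of the endoplasmic reticulum 18 of 19 genes fell and 1 rose (median -0.54). Sdf2l1, a chaperone partner, fell from 162 and 157 CPM to 70.8 and 69.3 CPM (log2 fold change -1.19, adjusted p = 1.32e-06), and the 1 gene that rose was Dnajb9, from 39.1 and 44.8 CPM to 62.9 and 60.7 CPM (log2 fold change 0.56, adjusted p = 1.88e-06). Of 15 heat shock chaperone genes 11 fell and 0 rose (median -0.45), with Hsp90aa1 from 375 and 367 CPM to 166 and 176 CPM (log2 fold change -1.12, adjusted p = 8.98e-15).

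In the NF-κB and TNF-inducible list 9 of 38 genes rose (23.7%) and 11 fell (28.9%), next to 20.7% and 22.6% of all tested genes. The median of -0.01 turned to 0.02 with upper-quartile scaling and lay between -0.05 and 0.03 when a library was left out. Tnf fell from 42.7 and 43.2 CPM to 14.9 and 14.6 CPM (log2 fold change -1.54, SE 0.12, adjusted p = 1.31e-10). Nos2, which makes nitric oxide, fell from 10.3 and 11.3 CPM to 4.18 and 3.83 CPM (log2 fold change -1.44, adjusted p = 0.0205). Cd83, an activation marker, rose from 16.9 and 23.9 CPM to 72.8 and 74.9 CPM (log2 fold change 1.86, SE 0.16, adjusted p = 9.87e-09), and the neutrophil chemokine Cxcl3 rose from 0.446 and 0.611 CPM to 2.66 and 2.51 CPM (log2 fold change 2.29, adjusted p = 0.00215). Il1rn, the antagonist of the IL-1 receptor, fell from 39.4 and 40.8 CPM to 32.7 and 30.7 CPM while Il1b rose, and went from 17.2 and 19.7 CPM to 31.8 and 33.0 CPM in treated Trex1 WT/FL cells (difference -1.15, SE 0.15, adjusted p = 5.12e-05). The anti-inflammatory cytokine Il10 fell from 8.42 and 8.13 CPM to 5.67 and 4.41 CPM (log2 fold change -0.72, adjusted p = 0.00366, difference -1.02, SE 0.28, adjusted p = 0.046, and 0.205 without day 3 replicate 2). Against these cells the change was higher in 1 gene of the list and lower in 4 (1.09% and 1.63% of all tested genes), and against untreated Trex1 FL/FL cells it was higher in 0 and lower in 8 (1.29% and 2.8% of all tested). When a library was left out, 3 to 9 genes of the list fell, with 3 without day 3 replicate 2. Nos2 did not pass without any 1 of the 4 libraries (adjusted p between 0.0597 and 0.118), Il1rn did not pass without day 2 replicate 2 (0.0661) or day 3 replicate 2 (0.0951), and Il10 did not without day 3 replicate 2 (0.0868).

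Immediate early genes, which respond to signals within minutes, rose in 12 of 31 and fell in 6 (median 0.21, against 0.68, 0.59 and 0.81 in the other arms in the order above). Fos went from 110.1 and 102 CPM to 151 and 155 CPM (log2 fold change 0.53, adjusted p = 0.00588) here and from 95.4 and 78.8 CPM to 296 and 218 CPM in treated Trex1 WT/FL cells (difference -1.03, SE 0.20, adjusted p = 0.00973, and 0.0524 without day 2 replicate 1). Egr1 rose from 1.04 and 1.14 CPM to 3.10 and 2.91 CPM (difference -1.33, SE 0.34, adjusted p = 0.0282, and 0.111 without day 2 replicate 2). Egr2 fell from 2.72 and 2.80 CPM to 1.46 and 1.93 CPM while it rose by a log2 fold change of 0.89 there (difference -1.58, SE 0.31, adjusted p = 0.00429). Dusp5, a phosphatase that limits ERK, rose from 2.43 and 1.30 CPM to 3.95 and 3.35 CPM (difference -1.41, SE 0.36, adjusted p = 0.034, and 0.350 without day 2 replicate 1). Myc, a driver of growth, fell from 11.9 and 12.4 CPM to 2.22 and 2.14 CPM (log2 fold change -2.48, SE 0.15, adjusted p = 2.08e-13), by more than in treated Trex1 WT/FL cells (-1.25, difference -1.23, SE 0.20, adjusted p = 0.000981). The change was lower than in those cells in 10 of the 31 genes and higher in 0 (1.63% and 1.09% of all tested genes), and against untreated Trex1 FL/FL cells it was lower in 6 and higher in 1 (2.8% and 1.29% of all tested). Without day 2 replicate 2 the adjusted p was 0.0569 for Fos, 0.0616 for Egr2 and 0.124 for Dusp5, and without day 3 replicate 1 it was 0.144 for Egr2.

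Of 24 genes of ribosome biogenesis and other MYC targets, 17 fell and 1 rose (median -0.38; the 1 rise was lost without day 2 replicate 1 or day 3 replicate 2), with the pseudouridine synthase Dkc1 from 10.6 and 8.27 CPM to 5.26 and 5.49 CPM (log2 fold change -0.81, adjusted p = 1.95e-06). Of 32 genes of glycolysis and the hypoxia response 19 fell and 4 rose (median -0.41). Eno1 (enolase) fell from 1109 and 1069.5 CPM to 446 and 469 CPM, by more than in treated Trex1 WT/FL cells (difference -0.40, SE 0.11, adjusted p = 0.0339, and 0.146 without day 3 replicate 1). Pgk1, with 53.4% of its words shared, fell from 869 and 867 CPM to 286 and 306 CPM. The vessel growth factor Vegfa rose from 8.59 and 9.32 CPM to 32.9 and 38.7 CPM (log2 fold change 2.01, SE 0.18, adjusted p = 4.72e-08). Of 15 NRF2 target and iron genes 6 rose (40%) and 4 fell (26.7%), with a median of 0.17. Of all tested genes, 20.7% rose and 22.6% fell. Fewer genes of this list rose when any 1 of the 4 Trex1-deleted libraries was left out. The iron exporter Slc40a1 was higher (23.6 and 24.7 CPM and 72.9 and 80.4 CPM, log2 fold change 1.67, adjusted p = 1.85e-05). The quinone reductase Nqo1 was lower (10.3 and 9.38 CPM and 5.91 and 5.83 CPM, log2 fold change -0.75, adjusted p = 0.00372). Tfrc, the transferrin receptor that imports iron, fell from 226 and 238 CPM to 183 and 171 CPM here and rose in treated Trex1 WT/FL cells from 249.7 and 232 CPM to 342 and 271 CPM (difference -0.74, SE 0.13, adjusted p = 0.00224).

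Transcripts of the mitochondrial genome fell in 11 of 13 genes and rose in 0 (median -1.0, against -0.31, -0.51 and -0.25 in the other arms). mt-Cytb, of respiratory complex III, fell from 1311 and 1315 CPM to 502 and 483 CPM (log2 fold change -1.41, SE 0.18, adjusted p = 3.97e-06), and mt-Nd4, of complex I, from 1145 and 1170.3 CPM to 538 and 519.7 CPM (log2 fold change -1.13, SE 0.18, adjusted p = 4.22e-05). The share of all counts that came from these genes was 2.16% to 2.22% on day 2 and 1.36% to 1.43% on day 3, while the other arms held 2.48% to 3.56% on day 2 and 2.09% to 2.61% on day 3. For no gene of the list did the difference from either arm pass, with mt-Cytb at -0.73 (SE 0.25, adjusted p = 0.143) against treated Trex1 WT/FL cells.

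Among chemokines and their receptors 10 of 28 genes rose (35.7%) and 14 fell (50%), with a median of -0.30. Of all tested genes, 20.7% rose and 22.6% fell. Ccl8 rose from 5.74 and 8.44 CPM to 30.1 and 38.3 CPM (log2 fold change 2.28, adjusted p = 2.94e-06) and the receptor Cxcr4 from 14.3 and 19.3 CPM to 73.7 and 77.1 CPM (log2 fold change 2.17, adjusted p = 6.55e-12), while the receptor Ccr1 fell from 27.0 and 21.0 CPM to 5.44 and 5.11 CPM (log2 fold change -2.19, adjusted p = 1.27e-07). Of 28 costimulatory and myeloid receptor genes 16 rose (57.1%) and 6 fell (21.4%, near the 22.6% of all tested genes), with a median of 0.28. Fewer of them rose when any 1 of the 4 Trex1-deleted libraries was left out. Of the ligands of CD28, Cd86 rose from 29.4 and 39.2 CPM to 88.5 and 84.9 CPM, less than in treated Trex1 WT/FL cells (difference -0.65, SE 0.15, adjusted p = 0.0195, and 0.145 without day 2 replicate 2). Cd80 rose from 12.0 and 11.5 CPM to 22.4 and 22.9 CPM, more than there (difference 0.71, SE 0.16, adjusted p = 0.0129, and 0.0592 without day 2 replicate 2). Slamf9, a SLAM family receptor, was at 67.9 and 68.3 CPM and 66.9 and 63.5 CPM (log2 fold change -0.06, adjusted p = 0.664), while it fell from 26.6 and 27.0 CPM to 9.63 and 10.5 CPM in treated Trex1 WT/FL cells (difference 1.35, SE 0.15, adjusted p = 6.56e-06). When a library was left out, 7 to 11 genes of the chemokine list and 3 to 5 of the costimulatory list fell, with the lowest numbers without day 3 replicate 2.

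Complement genes rose in 9 of 11 and fell in 1 (median 1.05). C3, the central component, rose from 766 and 775 CPM to 2698 and 2996 CPM (log2 fold change 1.89, SE 0.12, adjusted p = 4.36e-11), C4b from 6.36 and 5.44 CPM to 41.4 and 37.0 CPM (log2 fold change 2.73, adjusted p = 1.59e-05) and Cfb from 34.3 and 35.4 CPM to 144 and 175 CPM (log2 fold change 2.19, adjusted p = 4.4e-06), with 45.5% and 73.1% of the words of the last 2 shared. C1qa rose from 314 and 381 CPM to 755 and 826 CPM (log2 fold change 1.19, adjusted p = 0.00163). Lysosomal genes rose in 17 of 30 and fell in 6 (median 0.33). Psap rose from 5348 and 5509.9 CPM to 12279 and 12383 CPM (log2 fold change 1.18, SE 0.05, adjusted p = 4.39e-17) and cathepsin S (Ctss) from 2253 and 2339.9 CPM to 5447 and 5274 CPM (log2 fold change 1.22, SE 0.06, adjusted p = 2.63e-15). Cathepsin K (Ctsk) fell from 119 and 91.2 CPM to 15.6 and 12.1 CPM (log2 fold change -2.94, SE 0.23, adjusted p = 9.24e-09) and the proton pump subunit Atp6v0d2 from 50.6 and 44.8 CPM to 18.9 and 16.0 CPM. The last 2 are best known from osteoclasts, as is the fusion gene Dcstamp, which fell from 6.14 and 4.83 CPM to 0.205 and 0.410 CPM (log2 fold change -4.04, SE 0.35, adjusted p = 3.69e-09), by more than in treated Trex1 WT/FL cells (difference -2.67, SE 0.46, adjusted p = 0.00311).

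Markers of alternative activation and tissue residence gave 6 higher and 4 lower of 18, where 20.7% and 22.6% of all tested genes passed in those directions. The median was 0.04, against 0.58, 0.72 and 0.65 in the other arms, and lay between -0.05 and 0.10 when a library was left out. Clec10a, a lectin, rose from 14.4 and 13.2 CPM to 31.8 and 30.9 CPM (log2 fold change 1.18, adjusted p = 1.68e-10), by less than in treated Trex1 WT/FL cells, where it went from 16.7 and 17.4 CPM to 93.9 and 81.8 CPM (difference -1.18, SE 0.14, adjusted p = 6.56e-06). The scavenger receptor Stab1 fell from 993 and 995 CPM to 665 and 669.6 CPM (log2 fold change -0.57, adjusted p = 0.000143, difference -0.68, SE 0.15, adjusted p = 0.0157, and 0.0674 without day 3 replicate 1). The coagulation factor F13a1 was at 27.8 and 29.7 CPM and 21.0 and 25.9 CPM, with a difference of -1.64 (SE 0.36, adjusted p = 0.0216, and 0.101 without day 3 replicate 1). The fungal receptor Clec7a rose from 22.2 and 19.5 CPM to 60.0 and 51.6 CPM (log2 fold change 1.42, adjusted p = 8.82e-09), and the mannose receptor Mrc1 fell from 793 and 869 CPM to 609 and 667 CPM (log2 fold change -0.38, adjusted p = 0.0283). When a library was left out, 2 to 4 genes of the list fell, and the adjusted p of Mrc1 was 0.163 without day 2 replicate 2, 0.167 without day 3 replicate 1 and 0.0527 without day 3 replicate 2.

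Among adhesion, matrix and protease genes 5 of 32 rose (15.6%) and 14 fell (43.75%), with a median of -0.29. Of all tested genes, 20.7% rose and 22.6% fell. Fewer genes of the list fell when any 1 of the 4 Trex1-deleted libraries was left out. The gelatinase gene Mmp9 fell from 21.8 and 18.5 CPM to 5.06 and 4.92 CPM (log2 fold change -2.02, SE 0.26, adjusted p = 3.71e-06), while the treated Trex1 WT/FL libraries held 15.3 and 18.7 CPM and 14.7 and 15.5 CPM (difference -1.84, SE 0.35, adjusted p = 0.00772, and 0.05004 without day 3 replicate 2). The integrin chain Itgax (CD11c) fell from 3.74 and 2.94 CPM to 0.965 and 0.958 CPM (difference -1.51, SE 0.33, adjusted p = 0.0119, and 0.0759 without day 2 replicate 1). The plasminogen activator Plau fell from 51.4 and 52.6 CPM to 14.5 and 15.0 CPM (log2 fold change -1.82, adjusted p = 1.23e-05). Thbs1 rose by less than in treated Trex1 WT/FL cells, where it went from 8.45 and 3.78 CPM to 698 and 522 CPM (difference -2.02, SE 0.47, adjusted p = 0.0289, and 0.121 without day 2 replicate 2). When a library was left out, 3 to 5 genes of the list rose and the median lay between -0.32 and -0.15.

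Most genes called between day 2 and day 3 moved the same way in every arm. Of the 195 genes called higher, 125 were also called higher in 4-OHT-treated Trex1 WT/FL cells, which is 64.1% of the first list and 44.2% of the 283 called there (1.85% of all tested genes). In untreated Trex1 FL/FL cells 117 (60% and 44.7% of 262, 1.72% of all tested) and in untreated Trex1 WT/FL cells 115 (59.0% and 44.2% of 260, 1.7% of all tested) were called higher. Of the 578 genes called lower, 452 (78.2%, and 76.2% of the 593 called there, 3.89% of all tested) were also called lower in treated Trex1 WT/FL cells, 463 (80.1%, and 75.5% of 613, 4.02% of all tested) in untreated Trex1 FL/FL cells and 448 (77.5%, and 74.2% of 604, 3.96% of all tested) in untreated Trex1 WT/FL cells. The sign was shared with all 3 arms for 185 of 195 (94.9%) and 560 of 578 (96.9%). Pearson's r of the log2 fold changes with those in treated Trex1 WT/FL cells was 0.53 across 15257 genes, which are not independent replicates.

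The change between days differed from that in 4-OHT-treated Trex1 WT/FL cells in 415 genes at an adjusted p below 0.05, 166 with a higher change (1.09%) and 249 with a lower one (1.63%). The same contrast with untreated Trex1 FL/FL cells was higher in 197 (1.29%) and lower in 427 (2.8%). Leaving out any 1 of the 4 Trex1-deleted libraries lowered these counts to between 67 and 83, 105 and 124, 89 and 106, and 178 and 232 in the same order, so they depend on every one of these libraries. Leaving out any 1 of the 4 libraries of the arm compared with gave between 66 and 132, 103 and 206, 77 and 145, and 191 and 301. Of other genes that differed, Aqp9, a glycerol channel, fell from 7.33 and 8.08 CPM to 3.51 and 3.44 CPM here and from 5.86 and 6.90 CPM to 0.400 and 0.380 CPM in treated Trex1 WT/FL cells (difference 2.87, SE 0.41, adjusted p = 0.000145). Sirpb1a, a myeloid receptor, rose from 11.5 and 8.10 CPM to 46.5 and 40.8 CPM here and from 9.23 and 8.23 CPM to 14.4 and 15.2 CPM there (difference 1.39, SE 0.26, adjusted p = 0.00407), with 53.3% of its words shared. Jaml, an adhesion molecule, rose from 1.71 and 1.36 CPM to 2.54 and 3.20 CPM here and from 1.35 and 0.858 CPM to 7.35 and 10.0 CPM there (difference -2.08, SE 0.44, adjusted p = 0.00908, and 0.0606 without day 2 replicate 1). The growth factor Bmp2 rose from 0.594 and 0.444 CPM to 3.16 and 2.72 CPM, against 0.283 and 0.511 CPM and 10.6 and 9.20 CPM (difference -2.13, SE 0.48, adjusted p = 0.0146, and 0.154 without day 2 replicate 1). The rise of Jaml had an adjusted p of 0.149 without day 2 replicate 2 and 0.160 without day 3 replicate 2. Of the differences from treated Trex1 WT/FL cells that passed, 62 were recomputed gene by gene and 31 passed without each of the 4 libraries in turn, among them those of Asns, Trib3, Slc7a5, Gbp5, Gbp7, Samhd1, Tfrc, Myc and Slamf9, while those of Gbp2, Fos, H2-Eb1, Mmp9, Thbs1 and Jaml did not. For each of these differences given above that was lost in this way, the highest adjusted p of the 4 fits stands beside it with the library left out. The 62 include the difference of Trex1 itself. The differences of Kif2c, Cxcl3, Top2a, Nptx1 and Nr4a1, listed only further below, were also lost without at least 1 of these libraries. Aqp9, Sirpb1a, Jaml and Bmp2, like the other genes named for a difference between arms or for their known role, were picked after their values were seen.

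In 25 genes the change passed in opposite directions in the 2 treated arms and differed both between them and from untreated Trex1 FL/FL cells. Of these, 19 were lower here and higher in Trex1 WT/FL cells and 6 the reverse. Of all tested genes, 23.3% rose and 23% fell in treated Trex1 WT/FL cells. Trex1 and Shisa5 are among the 19, as are Gbp2, Gbp5, Gbp7, Il1rn, Tfrc and Egr2. Tnfsf10 (TRAIL), an IFN-inducible death ligand, fell from 56.9 and 59.8 CPM to 31.3 and 33.4 CPM here and rose from 16.1 and 11.0 CPM to 17.9 and 20.8 CPM there (difference -1.37, SE 0.27, adjusted p = 0.00644). Pdk3, a kinase that restrains pyruvate oxidation, fell from 22.0 and 19.4 CPM to 12.9 and 11.8 CPM and rose from 17.8 and 18.6 CPM to 26.2 and 28.0 CPM (difference -1.32, SE 0.13, adjusted p = 1.04e-06). Kdr, a receptor for vascular growth factor best known from endothelium, fell from 69.1 and 68.5 CPM to 43.2 and 40.4 CPM and rose from 17.6 and 13.6 CPM to 18.1 and 23.3 CPM (difference -1.13, SE 0.22, adjusted p = 0.00448). For Ighm, the immunoglobulin heavy chain gene, the libraries held 152 and 153 CPM and 78.6 and 72.5 CPM here (log2 fold change -1.02, SE 0.09, adjusted p = 3.14e-10) and 167 and 168 CPM and 193 and 184 CPM there (difference -1.19, SE 0.12, adjusted p = 1.43e-06).

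**Figure D4:**
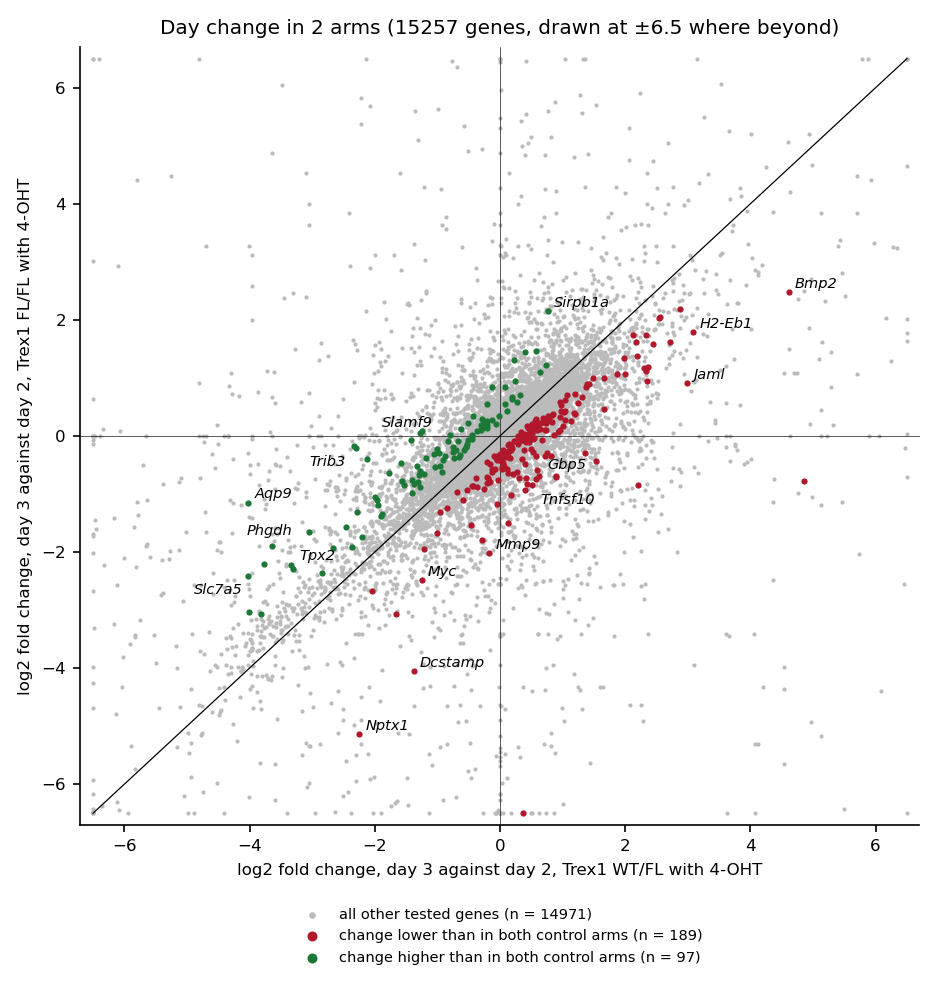
Log2 fold change from day 2 to day 3 in 4-OHT-treated Trex1 FL/FL cells (vertical) against 4-OHT-treated Trex1 WT/FL cells (horizontal) for the 15257 tested genes, with 97 genes whose change was higher and 189 whose change was lower than in both control arms in colour, and values beyond the axes drawn at their edge. Both comparisons share the 4 Trex1-deleted libraries, so the coloured genes are those libraries' deviation from each arm, and Aqp9, Trib3 and Slamf9 lie above the diagonal while Mmp9, Dcstamp and Gbp5 lie below it.

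Days 2 and 3 stand in a longer course. Irf7 held 30.7 and 24.4 CPM on day 1 and 2669 and 2434 CPM on day 4 in the Trex1-deleted cells, so its rise from day 2 to day 3 followed a larger one, while Gbp5 held 2.27 and 2.22 CPM on day 1 and 56.5 and 59.4 CPM on day 4. Trib3, at 6.02 and 7.48 CPM on day 1, held 22.0 and 24.2 CPM on day 4. Slamf9, at 30.2 and 35.6 CPM on day 1, held 129 and 100.3 CPM on day 4. Myc was at 68.4 and 60.4 CPM on day 1, fell to its lowest levels of the course on day 3 and held 7.03 and 6.14 CPM on day 4, and Mmp9, at 17.1 and 13.1 CPM on day 1 and 7.64 and 7.69 CPM on day 4, was likewise lowest on day 3.

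**Figure D5:**
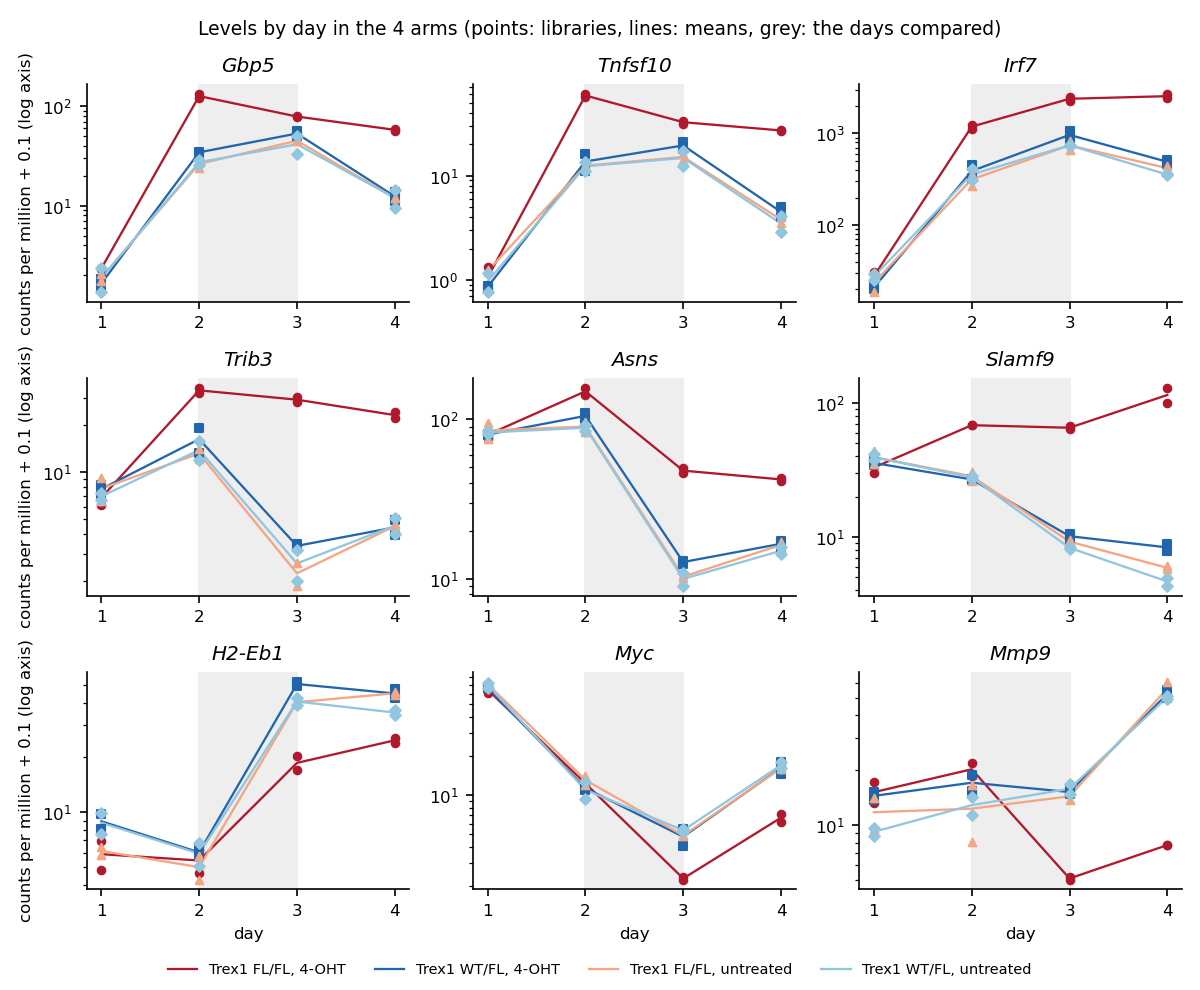
Level in CPM plus 0.1 (log axis) of Gbp5, Tnfsf10, Irf7, Trib3, Asns, Slamf9, H2-Eb1, Myc and Mmp9 on days 1, 2, 3 and 4 in the 4 arms, with 1 point per library and lines through the mean of each pair. Between day 2 and day 3 Asns went from 143 and 157 CPM to 49.1 and 46.0 CPM in Trex1-deleted cells, and the Gbp5 and Tnfsf10 lines of these cells fall while those of treated Trex1 WT/FL cells rise.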

How the data were processed

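The authors deposited 1 table of estimated counts (whole numbers in the file) for each gene and library, made with Salmon on the GRCm39 mouse build after demultiplexing and quality checks with FastQC 11.9. The annotation release is not given in the sources used here, and gene symbols and coordinates were taken from GENCODE vM39. Estimated counts of overlapping or near-identical genes rest on how reads were divided between them, so the share of 31-base words that a gene shares with other genes is given beside the gene where it exceeded 20%, or here. It was 59.7% for Fen1, 62.8% for mt-Nd4, 49.0% for Psme2, 45.9% for Apoc2, 41.0% for Irf1, 40.1% for Hsp90aa1, 35.9% for Cgas, 35.3% for Pcna, 33.7% for Dcstamp, 27.3% for Mxd3, 26.5% for Idi1 and for Ly6a, 23.8% for Cish, 22.3% for Nupr1, 21.2% for Dusp5, 20.9% for Dkc1 and 20.7% for Mybl2.

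Genes with too few counts were removed (edgeR filterByExpr, minimum count 10), which left 15257 of 54281, and 1 mean per genotype, treatment and day was fitted to all 32 libraries (16 residual degrees of freedom) with edgeR 4.0.16 in R 4.3.3 (TMM factors, quasi-likelihood test, Benjamini-Hochberg adjustment). The scripts were tested on simulated data. Levels are TMM-scaled CPM. A single gene tested alone by exact permutation of 2 against 2 libraries could not go below p = 0.33. Library totals ran from 35120505 to 63760884, and intervals from counts cover counting error only.

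The text names Trex1, the 12 called genes with the largest rise and the 12 with the largest fall (mean of at least 2 CPM, no overlap between days), and up to 4 members of each list per direction. The comparison, the lists and the alternatives were chosen with earlier results of these data known, and genes outside this rule were picked with their values in view. Promoter windows came from RefSeq on GRCm38.p6 and matched 10600 tested genes. Alternatives were other scaling factors, other filters, DESeq2 1.42.0, other sets of libraries in the fit and leaving out each library. Leaving out libraries of the control arms and a block of title sets were added after seeing the data.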

Additional observations from a re-analysis of the deposited data

Results flagged for a closer look

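The change from day 2 to day 3 in the Trex1-deleted cells was set against the same change in a control arm by an interaction contrast (edgeR's quasi-likelihood test, adjusted p below 0.05). It was higher than in 4-OHT-treated Trex1 WT/FL cells in 166 genes and lower in 249, and higher than in untreated Trex1 FL/FL cells in 197 and lower in 427. Both comparisons use the same 4 Trex1-deleted libraries, so they are not independent of each other. The genes of the text that passed follow, each with its difference on the log2 scale, first from treated Trex1 WT/FL and then from untreated Trex1 FL/FL cells. Trex1 itself passed in both comparisons and is not listed, but its differences are in the total of 118. A positive value means a larger rise or a smaller fall here, a gene that passed in only 1 comparison is not thereby shown to differ between the control arms, and the cause of each difference was not tested. Of the 118 differences, 57 passed when each library of either arm was left out in turn.

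Among mitotic and cell cycle genes, both differences passed, at 0.98 and 0.93 for Nek2, 1.12 and 1.16 for Tpx2, -0.62 and -0.44 for Ccnd1 and 0.59 and 0.50 for Ccng1. The difference passed from treated Trex1 WT/FL cells alone at 0.90 for Kif2c, 0.49 for Top2a and -0.44 for Pcna. From untreated Trex1 FL/FL cells alone it passed at -0.75 for Pbk. That difference was -0.44 without day 3 replicate 2 and did not pass there.

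Among ATF4 response genes, both differences passed, at 2.11 and 2.40 for Trib3, 1.75 and 1.88 for Phgdh, 1.62 and 1.25 for Slc7a5, 1.40 and 1.48 for Asns, 0.97 and 1.06 for Atf5, 0.86 and 1.01 for Mthfd2, 0.73 and 0.44 for Aldh18a1 and 0.57 and 0.41 for Atf4. From untreated Trex1 FL/FL cells alone it passed at 0.60 for Ddit3, which was lost on leaving out any of the Trex1-deleted libraries.

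Among IFN-inducible genes, both differences passed, at -1.31 and -1.46 for Gbp5, -1.18 and -1.23 for Gbp2, -0.88 and -1.04 for Gbp7, -0.88 and -1.05 for Gbp3, -1.37 and -1.13 for Tnfsf10, -0.49 and -0.54 for Samhd1, -0.51 and -0.53 for Uba7, -0.39 and -0.39 for Apobec3, -0.37 and -0.43 for Irf1 and -0.38 and -0.37 for Irf8.

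Among antigen presentation and costimulation genes, both differences passed, at -1.30 and -1.25 for H2-Eb1, -0.87 and -0.83 for Cd74, -0.65 and -0.75 for Cd86, 0.71 and 0.69 for Cd80, 1.35 and 1.57 for Slamf9 and 1.39 and 1.57 for Sirpb1a. The difference passed from treated Trex1 WT/FL cells alone at -0.57 for Cd274. Cd274 is also in the IFN-inducible list counted above, and Tnfsf10 is not.

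Among immediate early and inflammatory genes, both differences passed, at -1.23 and -1.05 for Myc, -1.58 and -1.10 for Egr2, -1.41 and -1.48 for Dusp5, -1.15 and -0.74 for Il1rn and -1.02 and -1.28 for Il10. The difference passed from treated Trex1 WT/FL cells alone at -1.33 for Egr1, -1.03 for Fos, -1.21 for Nr4a1 and 2.91 for Cxcl3.

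Among lipid and metabolism genes, both differences passed, at 1.02 and 0.79 for Scd2, 0.46 and 0.48 for Smpdl3a, -0.40 and -0.39 for Eno1, -1.32 and -1.30 for Pdk3, -0.74 and -0.83 for Tfrc and 2.87 and 3.19 for Aqp9. The difference passed from treated Trex1 WT/FL cells alone at -0.52 for Lpl. From untreated Trex1 FL/FL cells alone it passed at -0.63 for Cd36.

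Among tissue-resident, adhesion and secreted protein genes, both differences passed, at -1.18 and -2.08 for Clec10a, -0.68 and -0.75 for Stab1, -1.64 and -1.74 for F13a1, -1.84 and -2.25 for Mmp9, -1.51 and -1.87 for Itgax, -2.67 and -2.57 for Dcstamp, -2.08 and -2.42 for Jaml, -2.13 and -1.76 for Bmp2 and -2.89 and -2.52 for Nptx1. The difference passed from treated Trex1 WT/FL cells alone at -2.02 for Thbs1. From untreated Trex1 FL/FL cells alone it passed at -0.73 for Mrc1, which was lost on leaving out any of the Trex1-deleted libraries.

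Among other genes, both differences passed, at -1.19 and -1.28 for Ighm, -1.13 and -1.26 for Kdr and -1.27 and -1.28 for Shisa5.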

How the results depend on the processing

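The counts of called genes, 195 higher and 578 lower, stayed within 1.5 times of these values under every alternative except a test of the change above 1.5 log2 units within the model, which called 48 and 323. They ran from 182 to 224 and from 553 to 631 under the other scalings, filters, sets of libraries and DESeq2, and leaving out 1 of the 4 libraries gave 161 to 176 and 490 to 555. At an adjusted p below 0.05 (3152 and 3446) leaving out a library gave 2374 to 2582 and 2826 to 2945. With RLE factors 3077 rose and 3515 fell, and with upper-quartile factors 3583 and 3162, so the split of directions at this threshold depends on the scaling. DESeq2 called 793 genes, 764 of them among the 773 of edgeR.

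The counts of genes that differed between arms were less stable. For a higher and a lower change than in 4-OHT-treated Trex1 WT/FL cells (166 and 249), no filter gave 302 and 490, and DESeq2 gave 257 higher. Leaving out a Trex1-deleted library gave 67 to 83 and 105 to 124, and a library of the control arm 66 to 132 and 103 to 206. For untreated Trex1 FL/FL cells (197 and 427), no filter gave 318 higher and a fit of 8 libraries 317 higher. Leaving out a Trex1-deleted library gave 89 to 106 and 178 to 232, and a library of the control arm 77 to 145 and 191 to 301. The cause was not tested, beyond the smaller number of libraries. In these fits a lone library was assumed to vary like the other groups.

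Of the log2 fold changes of named genes, that of Ifnb1 alone changed sign, from -0.01 to 0.029 with upper-quartile factors, 0.000286 with no filter and -0.197 to 0.219 on leaving out a library. The median of the IFN-inducible list, 0.05, was 0.09 with upper-quartile factors. The labels carry no replicate numbers, but the numbers in the sample titles run in consecutive sets over the 4 days. A replicate block of these sets within each arm, added after seeing the data (12 residual degrees of freedom), called 194 and 567 genes. It gave 276 and 423 differences from treated Trex1 WT/FL and 287 and 628 from untreated Trex1 FL/FL cells. The deviations of a set correlated across genes at 0.0136 to 0.144 between days, so the sets were not taken as pairs. With 2 libraries a group, changes in genes under about 1 CPM rest on few counts.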
